A study of Arabidopsis thaliana with 2 samples.

Results

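The cytosolic small ribosomal subunit of Arabidopsis thaliana (thale cress) was followed through 59 nuclear genes of 24 protein families, RPSa and RPS2 to RPS23, in leaves of 2 genotypes. The genes were taken by locus from the 27336 loci of the count data, by a list of family members and not by their measured values. The RefSeq annotation of TAIR10.1 held an entry for all 59 and supplied the gene symbols used here. Of these genes 57 had at least 20 reads over both libraries and could be tested, and 2 had fewer. Of the 24 families 22 had more than 1 gene on the list.

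The groups were a wild-type line of the Columbia ecotype (stock N60000) and the atpip1;2-1 mutant line (N519794), whose plasma membranes are short of PIP1;2, an aquaporin or water channel. Plants of both lines were 3 weeks old and grew on soil in a greenhouse with 12 h of light, 24 °C by day and 20 °C by night, and each genotype gave 1 library of transcript 3′ ends from the leaves of 10 plants. Depth was 4079098 reads for the wild type against 4041759 for the mutant. The mutated gene itself had 4211 reads in the wild type against 566 in the mutant library, a log2 ratio (mutant over wild type) of -2.95 with a 95% interval of -3.08 to -2.83. There was no replicate check, so every interval and test below covers counting error between these 2 libraries and says nothing of the spread between plants. Leaves are mixtures, in which fewer cells of a type and less RNA per cell cannot be told apart. Levels are in CPM, reads per 1000000 of the scaled library size, and serve to compare a gene with itself between the libraries.

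The small subunit reads the messenger RNA and carries the decoding centre, and it is built in the nucleolus from ribosomal RNA and one copy of each protein family. In Arabidopsis nearly every family is encoded by several expressed genes (paralogs) that yield near-identical proteins. Transcription of plant ribosomal protein genes is known for a pair of short promoter elements, the telo box and site II, that are frequent in genes of growing tissue. Synthesis of the proteins follows growth, and in young dividing leaf tissue these transcripts are abundant.

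Because members that share promoter elements were measured side by side, the stretches below show the elements in the genes on which the results turn most. They come from the RefSeq genome and annotation of TAIR10.1, matched by locus and read on the coding strand of each gene, with position -1 as the last base before the annotated start. Capitals mark the telo box (AAACCCTA) and site II (TGGGCC or TGGGCT), each in either orientation, and no other letters were searched. A palindromic TGGGCCCA holds site II on both strands, overlapping. The RPS14 gene shows both elements together, and the RPS6 pair and the RPS4 pair show paralogs whose read shares shifted between the libraries. The remaining stretches belong to the RPSa gene, the RPS19 gene lowest among abundant members and the single RPS15a gene.
AT2G36160 (RPS14, chromosome 2, plus strand, -78 to -49): ttcGGCCCAaatttacgtggAAACCCTAaa
AT5G10360 (EMB3010, family RPS6, chromosome 5, minus strand, -62 to -33): attaTGGGCCCAtaaaatgtaGGCCCAatt
AT4G31700 (RPS6, chromosome 4, minus strand, -30 to -1): gataaaagggccatcgGGCCCAtaatcgca
AT5G07090 (RPS4, chromosome 5, plus strand, -85 to -56): aaaaTGGGCCtatctaaataAGCCCAataa
AT2G17360 (RPS4, chromosome 2, plus strand, -30 to -1): ggctcttatTGGGCCtatatTGGGCCtgta
AT1G72370 (P40, family RPSa, chromosome 1, minus strand, -54 to -25): attttgcaaatTAGGGTTTtgcttgatata
AT5G61170 (RPS19, chromosome 5, plus strand, -44 to -15): atatatgtcataGGCCCAtaggctaaaaca
AT1G07770 (RPS15A, family RPS15a, chromosome 1, minus strand, -237 to -208): gaacataatgaaTGGGCCaagatgaattta

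Transcripts of the small subunit were lower together in the mutant library. Summed over the 59 genes, 55269 reads in the wild type stood against 36910 in the mutant, or 13883 CPM against 8913 CPM. The mutant library thus held 64.2% of the wild-type sum (95% interval 63.4% to 65.1%), a log2 ratio of -0.64 (-0.66 to -0.62). As a share of all reads the genes made up 1.36% (exact binomial interval 1.34% to 1.37%) in wild-type and 0.913% (0.904% to 0.923%) in mutant leaves. Of the 57 tested genes 56 had a log2 ratio below 0, against 50.2% of all 15111 tested genes. The interval lay below 0 in 55 members and above 0 in none, where 13.2% of all tested genes had an interval below 0 and 10.3% one above.

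The difference was shared and modest in size. The median log2 ratio of the tested members was -0.64, with quartiles of -0.79 and -0.51, against a median of -0.00 and quartiles of -0.27 and 0.27 over all tested genes. By the exact binomial test of the reads (Benjamini-Hochberg adjusted over all tested genes) with a difference of at least 1.5-fold, 34 of 57 members were lower and 0 were higher. Over all genes the same rule called 3.96% lower and 3.28% higher. Restricted to genes with at least 100 reads, 33 of 54 members were lower against 5.75% of 8743 genes. At the stricter bound of 2-fold, 2 members were lower and 0 higher, against 1.1% and 1.3% of all genes. Without any bound on the fold, 53 members were lower at an adjusted p below the threshold of 0.05, as were 8.38% of all tested genes. The counts depend on ignoring the spread between plants, since with a biological coefficient of variation assumed at 0.1 the 1.5-fold rule called 14 members lower, against 1.17% of all genes, and with 0.2 it called 0, against 0.0199%.

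**Figure D1:**
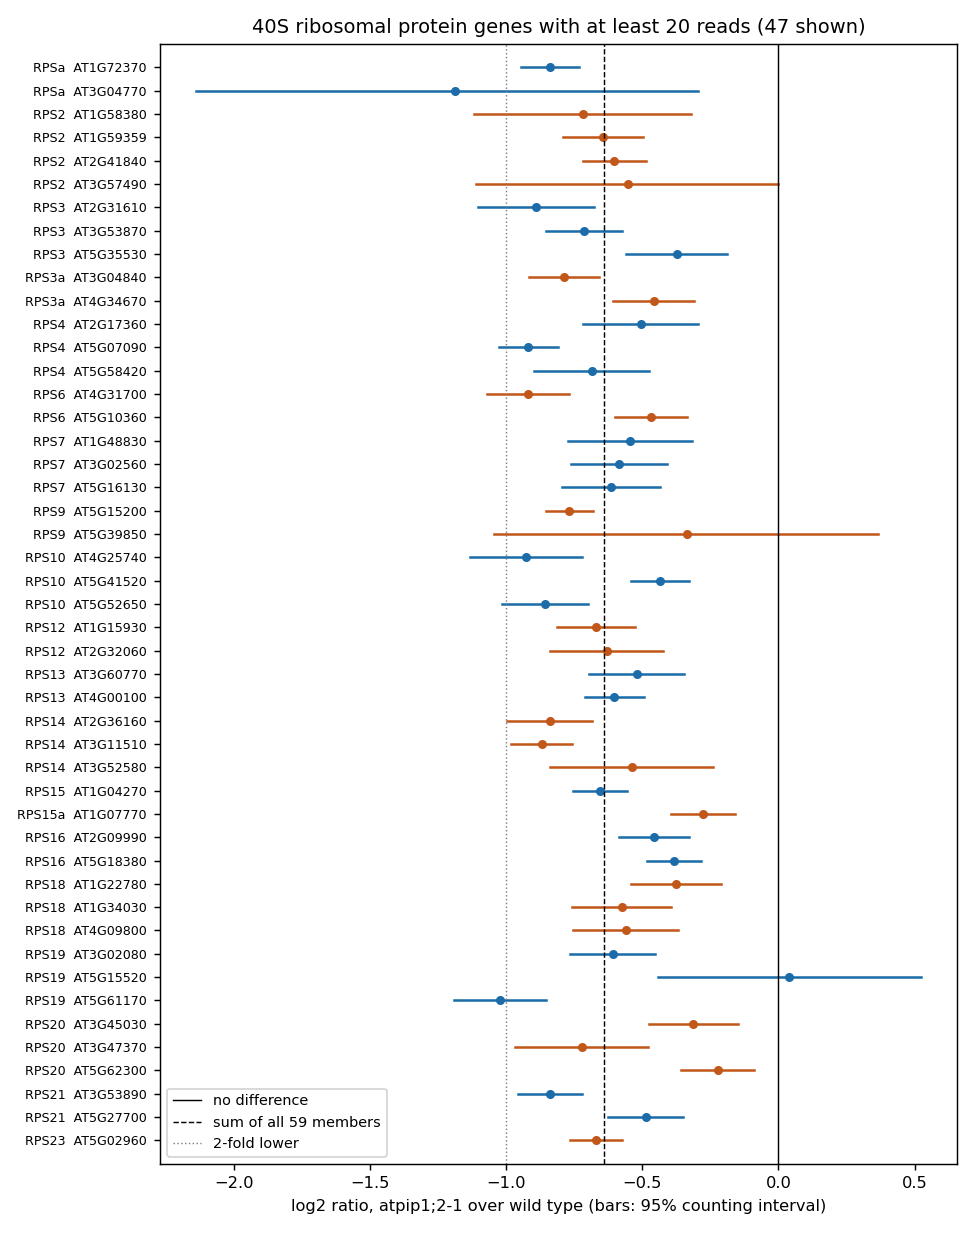
Log2 ratio of atpip1;2-1 over wild type (x axis) for 47 of the 57 tested small-subunit genes, grouped by family (y axis, colours alternating between families), with 95% counting intervals as bars. Of the 47 points 46 lie left of 0, and many bars reach the dashed line at the log2 ratio of the summed members, -0.64.

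Tested members ran from 8.79 to 726 CPM in the wild type, with a median of 225 CPM, and from 3.86 to 427 CPM in the mutant, with a median of 139 CPM. Abundant genes of all kinds were slightly lower too: the 2193 genes with at least 500 reads had a median log2 ratio of -0.09, with quartiles of -0.34 and 0.13. When log2 ratios were centred on other genes of the same level, an alternative chosen after seeing the data, the member median was -0.54 and 22 members were lower by 1.5-fold, against 3.65% of all genes. Among the members the Spearman rho of the log2 ratio was -0.01 with the level (57 genes), -0.03 with transcript length and -0.31 with GC content. These values describe 57 genes of the same 2 libraries and carry no test.

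**Figure D2:**
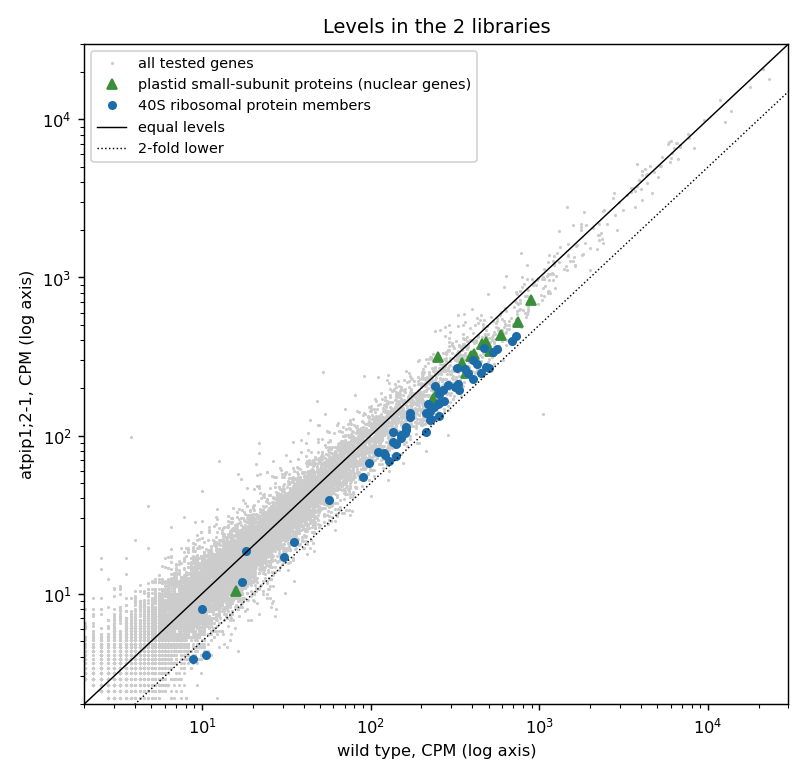
Level of each tested gene in the wild type (x axis) and in atpip1;2-1 (y axis), both in CPM on log axes, with small-subunit members as blue circles, nuclear genes of plastid small-subunit proteins as green triangles and all other tested genes in grey. Nearly all members lie between the lines of equal levels and of a 2-fold lower level, with 3 beyond the latter, of which 2 were called.

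All 24 families had a summed level below that of the wild type, with an interval that excluded 0 in each. Family log2 ratios ran from -0.84 to -0.28 with a median of -0.66, and 18 families were at or past a 1.5-fold difference. Families at both ends are described with their part of the ribosome below.

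Proteins of the body of the subunit and its foot are bound early in assembly, as known from yeast. The RPS4 family fell from 735 to 420 CPM (-0.81, -0.90 to -0.72), led by AT5G07090 at 503 and 266 CPM (-0.92, -1.03 to -0.81). Its paralogs AT5G58420, at 121 and 75.1 CPM (-0.69), and AT2G17360, at 111 and 78.2 CPM (-0.51), were less far below the wild type. Both had wide intervals, and that of AT2G17360 (-0.72 to -0.30) did not reach the interval of AT5G07090.

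RPS9, a protein at the entry of the messenger channel, was carried by the member with the most reads. This gene, AT5G15200, had 2892 reads in the wild type against 1767 in the mutant, 726 against 427 CPM (-0.77, -0.85 to -0.68). The other RPS9 gene, AT5G39850, had only 40 and 33 reads (-0.33, -1.05 to 0.37), and its interval included 0.

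RPS6 is the small-subunit protein that S6 kinase phosphorylates downstream of the growth regulator TOR. EMB3010 (AT5G10360) had 269 CPM in wild-type and 194 CPM in mutant leaves (-0.47, -0.60 to -0.33), whereas its paralog RPS6 (AT4G31700) had 252 and 133 CPM (-0.92, -1.07 to -0.77). The paralogs were near-equal in the wild-type library and apart in the mutant, with intervals of the log2 ratio that did not overlap. As a family they stood at 521 and 328 CPM (-0.67). RPS7 showed the opposite picture. Its 3 genes AT3G02560, AT5G16130 and AT1G48830 kept close log2 ratios of -0.59, -0.61 and -0.54, at 162, 159 and 98.2 CPM in the wild type and 108, 104 and 67.4 CPM in the mutant.

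RPS13 touches the large subunit, and RPS15a lies in the body. RPS13A (AT4G00100), whose mutants have pointed leaves and slowed growth, had 429 CPM in wild-type leaves and 283 CPM in mutant leaves (-0.60, -0.71 to -0.49), and its paralog AT3G60770 had 162 and 113 CPM (-0.52). RPS15A (AT1G07770), the only RPS15a gene among the members, had 326 CPM in the wild type against 269 CPM in the mutant. Its log2 ratio of -0.28 (-0.39 to -0.16; adjusted p = 5.39e-05, exact binomial test) was the smallest difference among the family sums of the members. For RPS15a that sum is this gene alone, so the rank does not hold for the whole family. Of further genes of that family outside the 59, RPS15AD (AT3G46040) had 255 and 219 reads (-0.28, -0.54 to -0.01) and AT5G59850 had 744 and 371 (-1.06, -1.24 to -0.88). The interval of AT5G59850 did not overlap those of the other two. RPS23, whose protein lines the decoding centre, was carried by AT5G02960 at 564 and 355 CPM (-0.67, -0.76 to -0.57).

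The platform and the back of the subunit hold RPS3a, RPS14, RPS21 and RPSa, near the exit of the messenger channel. RPSa was the family with the lowest ratio. P40 (AT1G72370) had 482 CPM in wild-type and 270 CPM in mutant leaves (-0.84, -0.95 to -0.73). Its scarce paralog RPSAb (AT3G04770) had 35 and 16 reads (-1.19, -2.14 to -0.30), and narrowly missed the test at an adjusted p of 5.11e-02 by the exact binomial test.

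RPS14 stood at 737 and 414 CPM as a family (-0.83), led by AT3G11510 at 452 and 247 CPM (-0.87, -0.98 to -0.76). AT2G36160, shown above with both elements, was close to it at 228 and 127 CPM (-0.84), while the third gene AT3G52580 had 56.8 and 39.1 CPM (-0.54, -0.84 to -0.24). AT3G11510 held neither element in its promoter window, and the ratios of these 2 abundant paralogs did not differ beyond their counting intervals. In RPS21, AT3G53890 had 405 and 226 CPM (-0.84, -0.96 to -0.72) and AT5G27700 had 255 and 182 CPM (-0.49, -0.63 to -0.35). In RPS3a, AT3G04840 had 335 and 194 CPM (-0.79, -0.92 to -0.66) and AT4G34670 had 218 and 159 CPM (-0.46, -0.61 to -0.31). In both families the more abundant gene was the lower one, with intervals that did not overlap.

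RPS2 and RPS3 line the entry of the messenger channel together with RPS9. The leading RPS2 gene, AT2G41840, had 376 CPM in wild-type leaves and 247 CPM in mutant leaves (-0.60, -0.72 to -0.49), and the family as a whole 667 and 433 CPM (-0.62). AT1G59359 and XW6 (AT1G58380) had 238 and 153 CPM and 34.9 and 21.2 CPM, and AT3G57490 had 69 and 49 reads (-0.55, adjusted p = 0.211 by the exact binomial test). RPS3 was led by AT3G53870, with 272 and 166 CPM (-0.72, -0.86 to -0.58). AT2G31610 was lower at 128 and 69.3 CPM (-0.89, -1.10 to -0.68) and AT5G35530 less so at 136 and 105 CPM (-0.37, -0.56 to -0.19), so that the RPS3 genes again spread beyond counting error.

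The head of the subunit, which holds tRNA contacts and the beak, includes RPS20 and RPS16, the families next to the single RPS15a gene in nearness to the wild-type level. Other families of the head lay lower, such as RPS12 (-0.66) and RPS19 (-0.755). RPS20 stood at 503 and 400 CPM (-0.33, -0.43 to -0.24). Its leading gene AT5G62300 had 958 reads in the wild type against 854 in the mutant (-0.22, -0.36 to -0.09; adjusted p = 1.10e-02, exact binomial test), the highest ratio among members with at least 500 reads. AT3G45030 was close at 172 and 139 CPM (-0.31), whereas AT3G47370 was lower at 90.4 and 54.8 CPM (-0.72, -0.97 to -0.48). RPS16, whose tail reaches the tRNA in the P site, had AT5G18380 at 470 and 361 CPM (-0.38, -0.48 to -0.28) and AT2G09990 at 287 and 209 CPM (-0.46, -0.59 to -0.33). These paralogs did not differ beyond their intervals, and neither holds a telo box or site II in its window.

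RPS18 was likewise above the sum of the members, at 456 and 324 CPM as a family (-0.49, -0.60 to -0.39). PFL (AT1G22780), an RPS18 gene named for the pointed leaves of its mutant, had 170 CPM in wild-type and 131 CPM in mutant leaves (-0.38, -0.54 to -0.21). Its paralogs AT1G34030, at 151 and 101 CPM (-0.58), and RPS18C (AT4G09800), at 135 and 91.5 CPM (-0.56), yield the same protein family from similar levels. RPS15 has 1 gene among the members, RPS15 (AT1G04270), at 530 and 337 CPM (-0.66, -0.75 to -0.56). Another RPS15 gene outside the 59, AT5G09510, had 573 and 299 reads (-0.995, -1.20 to -0.79). Its interval did not overlap that of AT1G04270, so the value of AT1G04270 does not hold for the whole family.

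RPS10 and RPS12 belong to the beak, and RPS10 and RPS20 are known in mammals as sites of ubiquitin marks on collided ribosomes. RPS10B (AT5G41520) had 404 CPM in wild-type leaves and 299 CPM in mutant leaves (-0.43, -0.54 to -0.33). AT5G52650, at 226 and 125 CPM (-0.86, -1.01 to -0.70), and AT4G25740, at 141 and 74.1 CPM (-0.93, -1.13 to -0.72), lay lower, with intervals that did not reach that of RPS10B. RPS12 showed no such split, with AT1G15930 at 251 and 158 CPM (-0.67) and AT2G32060 at 120 and 77.5 CPM (-0.63).

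RPS19, also of the head, is needed in human cells to mature the ribosomal RNA of the small subunit. In RPS19, AT5G61170 went from 851 reads to 436, or 214 to 105 CPM (-1.02, -1.19 to -0.85; adjusted p = 6.43e-33, exact binomial test), the lowest ratio among members with at least 500 reads and 1 of the 2 calls past 2-fold. AT3G02080 had nearly the same wild-type level, 849 reads, and 579 in the mutant (-0.61, -0.76 to -0.46). AT5G15520 had 72 reads in the wild type against 77 in the mutant (0.04, -0.44 to 0.52), the only tested member not below the wild type. The 2-fold call of AT5G61170 rests on the scaling of the libraries: 1 member in place of 2 passed when total counts, reference genes or totals without organelle and abundant genes set the scale.

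The 2 members left untested had almost no reads. AT3G09680 (RPS23) had 1 read in the wild type against 0 in the mutant, where as many as 3 reads (0.724 CPM) remain possible, and no fold is given. Its promoter window still held a telo box and site II.

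Beyond the shared shift the members differed among themselves by more than counting error. The SD of the log2 ratio was 0.18 over the 49 members with 500 reads or more, where counting alone gives 0.08, and the ratios ran from -1.02 to -0.22. For comparison the SD over all 2193 genes at that depth was 0.38. The interval of 13 members lay wholly below that of the summed members and that of 12 wholly above it, while 32 overlapped it. Among those below it were P40, AT2G31610, AT3G04840, AT5G07090, AT4G31700, AT5G15200, AT4G25740, AT5G52650, AT2G36160, AT3G11510, AT5G61170 and AT3G53890. How far plant-to-plant spread of single genes would produce such differences was not measured with 1 pool per genotype.

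Within a family the share of reads that each paralog contributes does not depend on how the libraries were scaled. In 21 of the 22 families with several genes the same paralog led in both libraries. The exception was RPS19, where AT5G61170 held 48.0% and AT3G02080 47.9% of the family's reads in the wild type, against 39.9% and 53.0% in the mutant. The share of the leading paralog (by reads over both libraries) had intervals that did not overlap in 5 families, and 15 genes of 8 families had such a share overall. The same count was not made for paralogs of other gene families, so whether these numbers are high or low is unknown. The largest of the 5 shifts was in RPS6. EMB3010 held 51.6% (exact interval 49.4% to 53.7%) of the RPS6 reads in wild-type leaves and 59.3% (56.6% to 61.9%) in mutant leaves. Per transcript length these shares were 51.1% and 58.8%.

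In RPS10 the share of RPS10B was 52.4% (50.6% to 54.2%) in the wild type against 60.1% (57.9% to 62.2%) in the mutant, at the cost of both other genes. AT5G52650 went from 29.3% to 25.1% and AT4G25740 from 18.3% to 14.9%. In the 3 other families the leading gene lost share. AT3G53890 held 61.3% of RPS21 in wild-type and 55.4% in mutant leaves, and AT3G04840 held 60.5% and 55.0% of RPS3a. AT5G07090 held 68.5% and 63.5% of RPS4, where AT2G17360 rose in share from 15.1% to 18.6%. The remaining 17 families had a leading share whose intervals overlapped, among them RPS2 (56.4% and 57.1% for AT2G41840) and RPS13 (72.7% and 71.5% for RPS13A).

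**Figure D3:**
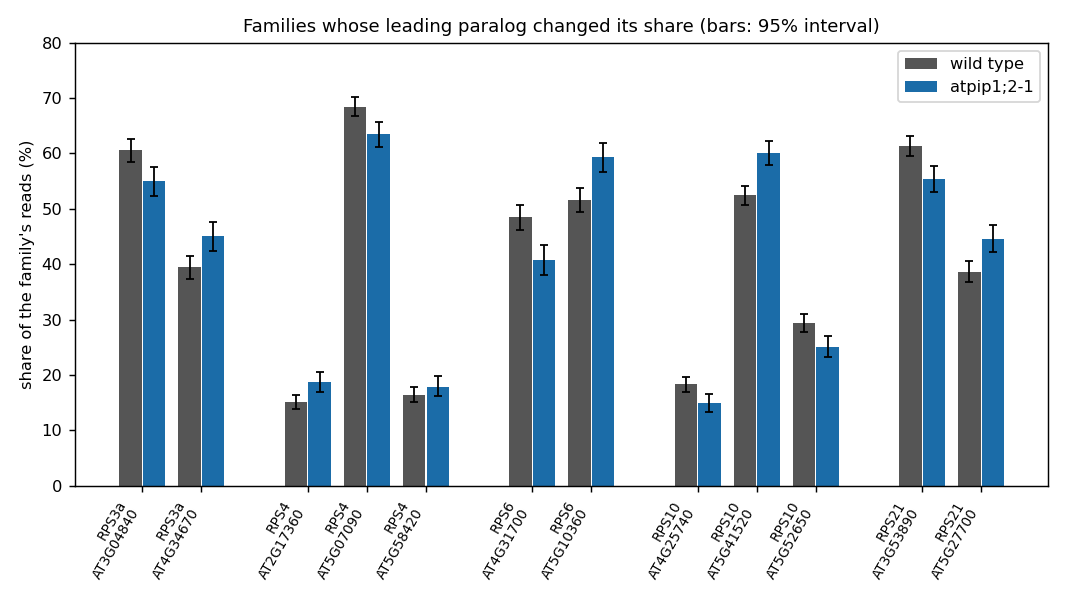
Share of each family's reads (y axis, percent) held by every paralog (x axis) in the wild type (grey) and in atpip1;2-1 (blue) for the 5 families whose leading paralog had shares with intervals apart, with 95% exact binomial intervals as bars. The leading gene gained share in RPS6 and RPS10 and lost it in RPS3a, RPS4 and RPS21.

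Near-identical paralogs can exchange reads, and how reads matching several loci were treated is not given in the sources consulted. Words of 30 bases in the last 300 bases of the transcripts were therefore compared in all 50 pairs of paralogs within the 59 genes. Paralogs outside the 59, such as those of RPS15 and RPS15a, were not compared. Only 5 members shared such a word with a paralog, among them AT1G58380 and AT1G59359 of RPS2, and the split of reads among these is uncertain. None of the 5 families with shifted leading shares was among them. Shorter or inexact matches were not searched, so the comparison cannot show that the other members exchanged no reads. Without the 5 genes the median log2 ratio of the 52 remaining tested members was -0.62.

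The promoter elements were frequent in the members. In windows from 250 bases before to 50 bases after the annotated start, 29 of 59 members (49.2%) held a telo box and 41 (69.5%) held site II, while 47 (79.7%) held at least 1 of them and 23 held both. Over all 27443 protein-coding genes with a window of this length, 6.22% held a telo box and 21.7% site II, and over the 14954 tested genes with a window the shares were 5.62% and 27.5%. The elements of ribosomal protein genes are part of what the class is known for, and a match is no evidence of a bound site.

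The medians of members with and without an element lay close together, and their difference was not tested. The 27 tested members with a telo box had a median log2 ratio of -0.61 (from -0.93 to -0.38) and the 30 without it one of -0.65 (from -1.36 to 0.04). For site II the medians were -0.64 over 40 members with a match and -0.64 over 17 without. The 12 tested members with neither element had a median of -0.66 and ran from -1.36 to 0.04. The paralogs shown above differed in both directions. EMB3010, with both elements in its window, had the higher ratio of the RPS6 genes. AT5G07090, also with both, had the lowest ratio of the RPS4 genes, and AT5G58420, with both as well, lay between its paralogs (-0.69). The stretches printed for EMB3010 and AT5G07090 show site II only, as their telo boxes lie elsewhere in the window.

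**Figure D4:**
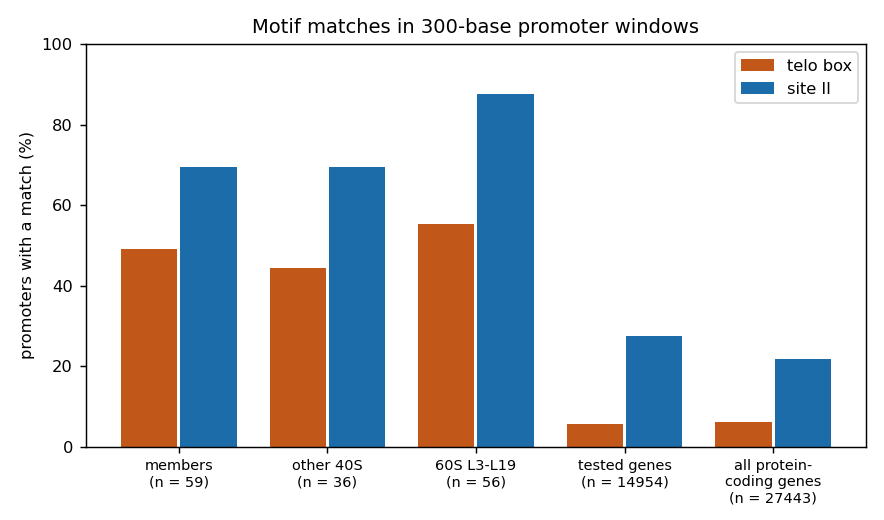
Percentage of promoter windows (y axis) with a telo box (orange) or site II (blue) in the 59 members, 36 other small-subunit genes, 56 large-subunit genes, all tested genes and all protein-coding genes (x axis). The members reach 49.2% and 69.5%, against 5.62% and 27.5% in the tested genes.

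Further genes of the same subunit moved like the members. These ranged from RPS15 and RPS15a paralogs, whose families also have members, to RPS30 and RACK1. Of 29 tested genes 29 had a negative log2 ratio, 15 were lower by 1.5-fold and 3 by 2-fold, with a median of -0.61. The most abundant, AT4G39200, had 600 and 394 CPM (-0.61). Besides AT5G59850, the calls at 2-fold were the RACK1 genes RACK1B_AT (AT1G48630), with 398 and 171 reads (-1.28, -1.54 to -1.01), and RACK1C_AT (AT3G18130), with 283 and 141 reads (-1.06, -1.36 to -0.77). RACK1 is a scaffold protein on the head of the subunit. The large-subunit families L3 to L19 had a median of -0.67 over 53 tested genes, of which 36 were lower by 1.5-fold and 2 by 2-fold, so that members and large-subunit genes had like medians.

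Ribosomal proteins of another compartment were less far below the wild type. The 14 nuclear genes for small-subunit proteins of the plastid ribosome had a median log2 ratio of -0.35, and 0 passed the 1.5-fold rule in either direction by the exact test, although 13 had an interval below 0. PSRP4 (AT2G38140), the most abundant of them, had 890 and 721 CPM (-0.30). AT5G24490 stood above the wild type with 251 and 315 CPM (0.33). Subunits of eIF3, the initiation factor that binds the small subunit, had a median of -0.29 over 15 tested genes, with 2 lower by 1.5-fold, EIF3A (299 and 193 reads, -0.69) among them. These medians describe lists chosen with results of these data known, and differences between them were not tested.

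Factors that build the subunit were called only in part, and differed in depth. Among 11 genes of small-subunit assembly, the nucleolar genes FIB2 (102 and 34 reads, -1.64, -2.25 to -1.07), NUC-L1 (143 and 87.9 CPM, -0.70) and FIB1 (137 and 90.3 CPM, -0.60) were lower by 1.5-fold. The other 8 were not called, and the list had a median of -0.15, with a positive log2 ratio in 3 genes. Among the uncalled, AT3G11964 had 30 and 15 reads (-1.06, -2.06 to -0.12), with an interval below 0. The uncalled genes had 13 to 113 reads in the wild type, against 569 for NUC-L1 and 546 for FIB1, so few reads limit their calls. The TOR and S6 kinase genes had a median of 0.13 over 6 genes with 0 called by the exact test, and 4 had a positive log2 ratio. TOR itself had 52 and 62 reads (0.20, -0.36 to 0.76). The S6 kinase gene PK1 (AT3G08730) had 174 and 139 reads (-0.38, -0.71 to -0.05), the only interval of the list below 0, and was not called. Likewise 0 of 5 genes for factors known to bind the telo box or site II were called, with a median of 0.13. PUR ALPHA-1 had 155 and 186 reads (0.21) and TCP20, which binds site II, 10 and 14. TRB3 had 58 and 37 reads (-0.705, -1.34 to -0.09), the only interval of the 5 below 0, and the other 4 genes had a positive log2 ratio. Few reads limit the calls in the TOR and promoter-factor lists as well.

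**Figure D5:**
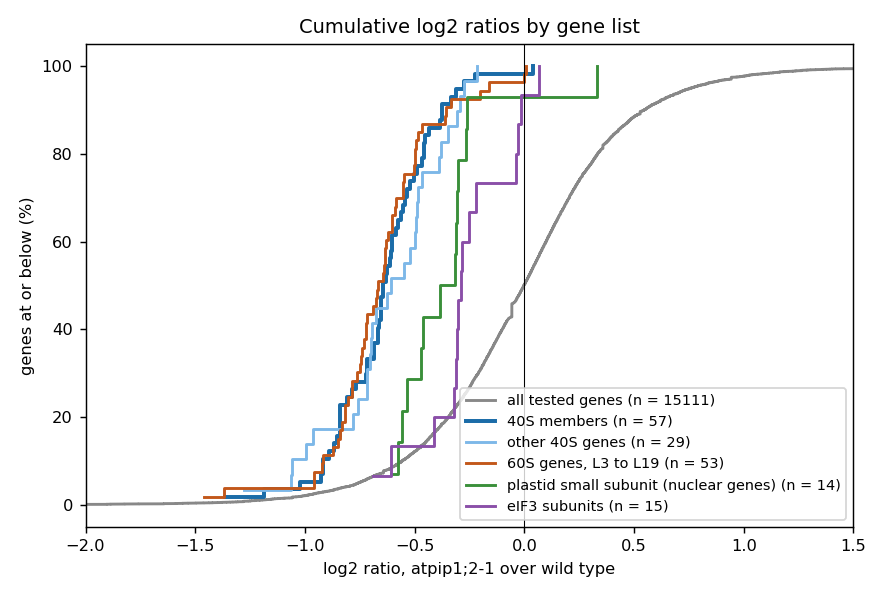
Cumulative percentage of genes (y axis) at or below each log2 ratio of atpip1;2-1 over wild type (x axis) for all tested genes and 5 lists. The members (median -0.64) run with the other small-subunit genes (-0.61) and the large-subunit genes (-0.67), left of the plastid small-subunit genes (-0.35), the eIF3 subunits (-0.29) and all tested genes (-0.00).

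Markers of dividing cells moved in the same direction as the members, from far lower levels. Of 19 listed markers 13 had enough reads and all 13 had a negative log2 ratio, with a median of -0.74, an interval below 0 in 4 and 0 called by the exact test at 1.5-fold. Their summed level was 105 CPM in wild-type leaves and 68.3 CPM in mutant leaves, and none of the 19 was at 0 in both libraries. PCNA2, a clamp of DNA replication, had 50 and 38 reads (-0.45) and CDKB2;1, a mitotic kinase, 35 and 25 (-0.54). Their part in the lower level of the members was not tested. The labelled leaf tissue was borne out by mesophyll genes, with 8 of 8 present and a summed level of 95250 and 89059 CPM (median log2 ratio -0.05). Guard cell genes had a median of -0.21 over 4 genes with 0 called, and phloem genes one of -0.08 over 2. Of 4 root genes 2 were at 0 in both libraries and the list summed to 2.76 and 3.86 CPM, and of 5 flower and seed genes 3 were at 0 in both, with sums of 0.754 and 0.241 CPM.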

How the data were processed

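Libraries of transcript 3′ ends were sequenced on a Genome Analyzer II, per the labels' protocols. The deposited values are raw read counts, 1 column per genotype per the file headers, on build TAIR9 according to the submitters' processing notes. Aligner, counter, strand use and the handling of reads matching several loci: not given in the sources used here. Without strand, overlapping and antisense genes cannot be told apart. Each file held 27337 rows, 1 locus being repeated and kept once.

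TMM factors of 0.976 and 1.02 (edgeR 4.0.16, R 4.3.3) scaled the libraries. With 1 library per genotype neither edgeR's quasi-likelihood fit nor DESeq2 could be fitted, so a two-sided exact binomial test compared the reads of the 2 libraries gene by gene. P-values were adjusted after Benjamini and Hochberg over the 15111 genes with at least 20 reads. A gene was called at an adjusted p under 0.05, a 95% Clopper-Pearson interval excluding 0 and a difference of at least 2-fold or 1.5-fold. Reads carry no molecular identifiers, so intervals cover counting error only. DESeq2 1.42.0 size factors served as an alternative scale. Python 3.11.15, numpy 2.4.6, scipy 1.17.1, pandas 2.3.3 and matplotlib 3.10.9 were used.

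Promoters and transcript ends came from the RefSeq TAIR10.1 genome, whose build differs from that of the counts, so no coordinates are printed. From the plastid list 2 loci annotated to the large subunit were left out. Named by rule were the leading paralog of each family, members called at 2-fold or under 20 reads, the 4 lowest and 4 highest ratios, families with shifted shares and up to 4 genes of each other list. Single values of some members that this rule names are not reported here, though all counts, sums and medians include them. The remaining members were added to complete their families, after their values had been seen. So were RPS15AD and AT5G09510 from outside the 59. The members, lists and rules were chosen with earlier results of these data known.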

Additional observations from a re-analysis of the deposited data

How the results depend on the processing

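In each of 6 library scalings 56 of 57 members stayed below 0, with an interval below 0 in 54 or 55. With TMM factors 13.2% of all tested genes had an interval below 0, and this share was not taken for the other scalings. The median over all genes ran from -0.01 to 0.07 between scalings. The 2-fold count of 2 became 1 with total counts, with 10 reference genes, with totals that leave out organelle genes and the 20 genes with most reads, with at least 100 reads, with a biological coefficient of variation assumed at 0.1 and after centring by transcript length and GC content, 0 with a coefficient of 0.2, and 3 with TMM factors computed without the listed ribosomal genes or with the deeper library thinned. The 1.5-fold count of 34 became 14 with a coefficient of 0.1, 0 with 0.2 and 22 after centring by level, and ran from 23 to 36 elsewhere. Over all 15111 tested genes, 118 to 173 were lower by 2-fold and 2.99% to 4.08% by 1.5-fold across the 6 scalings. The 1.5-fold share was 1.17% with a coefficient of 0.1, 0.0199% with 0.2 and 3.65% after centring by level. The member median of -0.64 was -0.57 with total counts, -0.61 with reference genes, -0.57 without organelle and abundant genes, -0.54 after centring by level, -0.57 after centring by length and GC content and -0.62 without members sharing a 3′ word. The summed members stood at -0.57, -0.60 and -0.57 under the first 3 of these scalings, and the median of the other small-subunit genes, -0.61, at -0.54, -0.57 and -0.54. A new scale adds the same amount to every log2 ratio, and the median over all genes went from -0.003 to 0.068 with total counts. The cause of the shifts after centring and after removing members was not tested. PIP1;2 stayed between -2.96 and -2.88, and all 24 family sums kept intervals below 0 with total counts and reference genes. Centring, the removal of members sharing a word, and the scalings of PIP1;2 and of the comparison lists were chosen after seeing the data. No paired analysis was possible because each genotype has 1 library, and for the same reason no library could be left out. Depth limits the members under 100 reads most, whose intervals are the widest.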
